A study of Mus musculus with 6 samples.

Results

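The genes described here are 10 members of the Notch pathway: the receptors Notch1, Notch2 and Notch3, the ligands Jag1, Jag2 and Dll1, the glycosyltransferase Lfng, the DNA-binding partner Rbpj, and the target genes Hes1 and Hey1. They were chosen by name from all 18193 genes measured, and each was read from the brightest probe set annotated to that gene alone. All 10 were found, with 19 probe sets among them. RNA came from cells of digested skin tumours of 3 wild-type (WT) and 3 E-FABP-deficient (EKO) mice, E-FABP being the epidermal fatty acid binding protein encoded by Fabp5, and was measured on 1 Affymetrix array per mouse. Mice of both groups had received the carcinogen DMBA and the tumour promoter TPA for 5 months, so no group was without chemical treatment. The labels name the cells keratinocytes, and give neither the age and strain of the mice nor how the allele was made.

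Notch receptors are membrane proteins that are cut after a ligand on a neighbouring cell binds them. The freed intracellular part enters the nucleus and joins Rbpj, a DNA-binding protein that represses target genes without it and activates them with it. In the epidermis Notch signalling drives keratinocytes out of the basal layer and acts as a tumour suppressor, and in the hair follicle it maintains the matrix and the inner root sheath.

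No Notch gene passed the test between EKO and WT tumours. On the brightest probe sets, receptor signals were higher and the Rbpj signal lower by their means, while the ligands and Hey1 had differences near 0, although the dimmer Jag1 probe sets were lower in EKO tumours by their means. In limma, with Benjamini-Hochberg adjustment over all genes, 0 of the 10 reached an adjusted p of 0.05, against 0.00550% of all genes, which is Fabp5 alone. At an unadjusted p under 0.05 there were 2, Notch1 and Notch3, both with higher EKO means, where 7.13% of all genes stood in either direction. The 3 EKO arrays did not overlap the 3 WT arrays for 3 of the 10, Notch1 and Notch3 above and Rbpj below, against 12.0% of all genes. The median log2 difference, EKO minus WT, was 0.04 over the 10 genes and 0.00 over all genes, and the median size of a difference was 0.0751 against 0.0945.

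**Figure D1:**
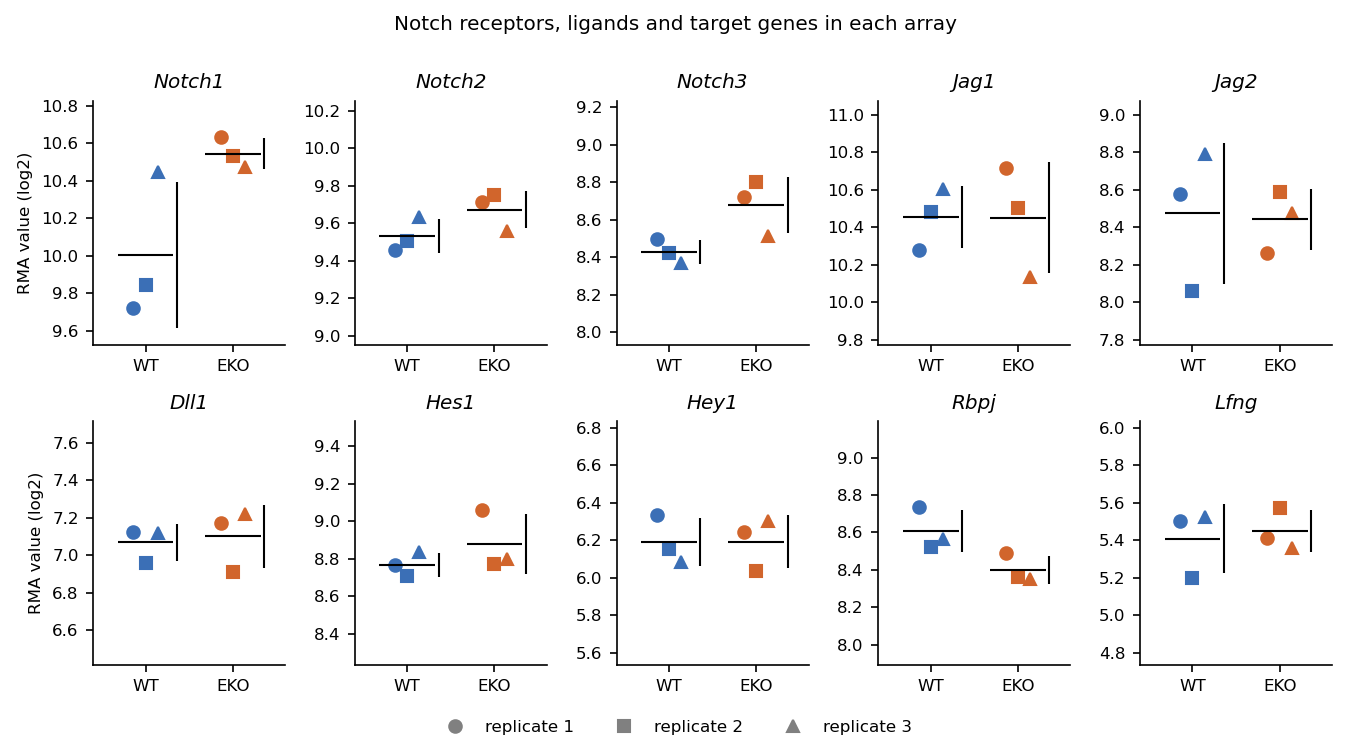
Signal of each of the 10 Notch genes (RMA value, log2) in the 3 WT and 3 EKO arrays; shapes mark the replicate number, horizontal lines the group means and vertical lines 1 SD on either side, and every panel spans the same log2 range. The groups are apart for Notch1, Notch3 and Rbpj, and WT replicate 3 of Notch1, at 10.45, lies next to the lowest EKO array, at 10.48.

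Array-wide facts bear on every value. Fabp5 had log2 means of 14.85 ± 0.0730 in WT and 8.16 ± 0.166 in EKO tumours (SD, n = 3 each), so all arrays matched their labels. The arrays had medians from 5.41 to 5.43, and pairwise correlations over all probe sets ran from 0.988 to 0.994. Basal and suprabasal keratinocyte markers, 7 of 7 and 7 of 7 measured, had signals above the lower quartile of each array in all cases. The listed markers of hair follicle, endothelium, pericytes, fibroblasts, macrophages, T cells and skeletal muscle were also above it, except Myh4 of muscle in 2 arrays, although these data carry no detection calls. The macrophage and dendritic cell score was the 1 of the 9 list scores whose groups did not overlap, at -0.04 to 0.35 in WT and -0.36 to -0.06 in EKO arrays, which nearly met. Of its 8 markers 1 was without overlap, against 12.0% of all genes. All 8 had lower EKO means, with a median log2 difference of -0.22, as had all 8 skeletal muscle markers, with a median of -1.17 and overlapping scores. Their part in the differences of the Notch genes was not tested. In such bulk samples fewer cells of a type and less RNA per cell cannot be told apart.

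Notch1, the main receptor of suprabasal keratinocytes, had the largest difference of the 10. The WT tumours read 9.72, 9.84 and 10.45 on the log2 scale and the EKO tumours 10.63, 10.53 and 10.48, each time in the order of replicates 1, 2 and 3, which holds for all values given below. All EKO arrays were above all WT arrays, but WT replicate 3 was only just below them. The SD was 0.389 among the WT and 0.0803 among the EKO tumours (n = 3 each), whose mean was 10.55, so most of the spread lay among the WT tumours. The difference was 0.54 (SE 0.187, 95% interval 0.10 to 0.98), or 1.46-fold, and did not pass (limma unadjusted p = 0.0227, adjusted p = 0.638). The dimmer Notch1 probe set read 7.27, 7.36 and 7.71 in WT and 8.06, 7.89 and 7.78 in EKO replicates. It gave the same picture, without overlap and with WT replicate 3 closest to the EKO arrays, and a difference of 0.46.

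The 2 arrays with the lowest Notch1 signal also had the lowest hair follicle scores. The hair follicle score, the mean over 11 markers of the log2 difference from the 6-array mean, was -1.97, -0.46 and 1.15 in the WT tumours. For the EKO tumours it was 0.80, 0.66 and -0.18. WT replicate 3 thus had the highest score of all arrays, although its Notch1 signal was below that of every EKO array. All 11 markers had higher EKO means, with a median log2 difference of 0.78. Of the 11, 0 were without overlap, against 12.0% of all genes, and 0 had an unadjusted p under 0.05 in limma, against 7.13%. WT replicate 3, whose Notch1 signal was close to that of the EKO tumours, was the highest WT array for all 11 markers and reached or passed the lowest EKO array for all 11. The arrays with the lowest Notch1 signal, WT replicates 1 and 2, were also the 2 lowest arrays for 9 of the 11 markers, which holds for 9.37% of all genes. That comparison was chosen after the values were seen, and markers of the same structure are not independent of each other. The part of follicle cells in the Notch1 difference was not tested. Without WT replicate 3 the Notch1 difference was 0.76 (limma adjusted p = 0.103), and without WT replicate 1 it was 0.40 (adjusted p = 0.998). Its adjusted p over all alternatives ran from 0.103 to 0.998.

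**Figure D2:**
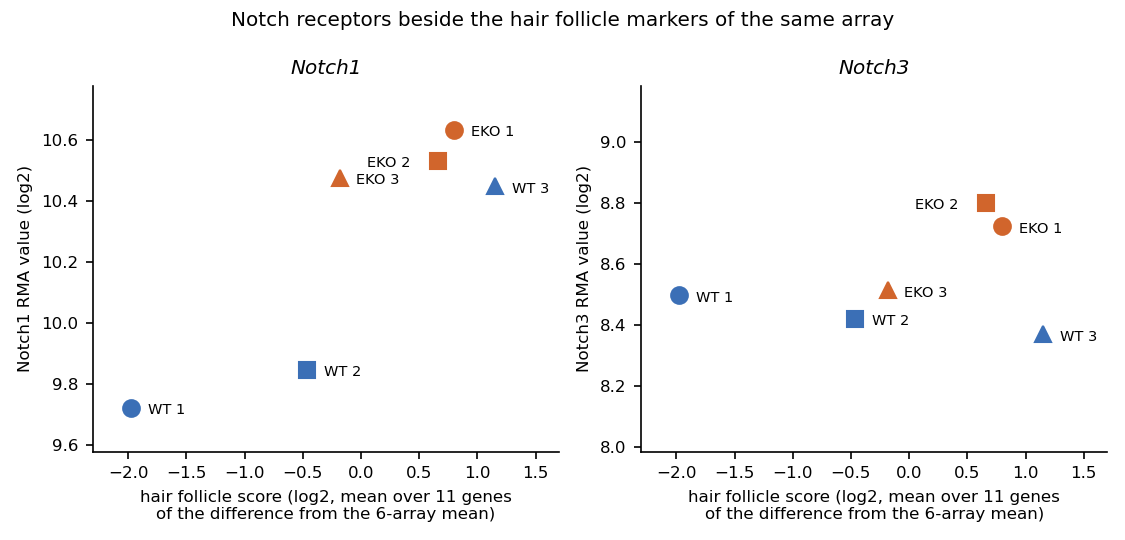
Signals of Notch1 (left) and Notch3 (right), as RMA values on the log2 scale, against the hair follicle score of the same array, 1 point per array with WT in blue and EKO in orange. WT replicates 1 and 2 are the lowest points for Notch1, while WT replicate 3 has the highest hair follicle score, 1.15, and the lowest Notch3 signal, 8.37.

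Notch2 and Notch3 showed smaller differences. Notch2, a receptor broadly expressed in skin, read 9.45, 9.50 and 9.63 in the WT and 9.71, 9.75 and 9.56 in the EKO replicates. EKO replicate 3 fell inside the WT range, and the difference of 0.14 (95% interval -0.08 to 0.36) did not pass (limma adjusted p = 0.799). Its dimmer probe set had a difference of the opposite sign, -0.12. Notch3, a receptor of pericytes and vascular smooth muscle that is also found in suprabasal keratinocytes, read 8.50, 8.42 and 8.37 in the WT and 8.72, 8.80 and 8.51 in the EKO replicates. The groups did not overlap, although EKO replicate 3 and WT replicate 1 nearly met. The difference was 0.25 (SE 0.102, 95% interval 0.01 to 0.49; limma unadjusted p = 0.0432, adjusted p = 0.691), and 0.11 with overlap in the dimmer probe set.

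The order of the arrays differed between Notch3 and Notch1. Notch3 was lowest in WT replicate 3, the array with the highest hair follicle score. The 9 pericyte and smooth muscle markers went both ways, 5 with higher and 4 with lower EKO means and a median log2 difference of 0.11. Their score ran from -0.22 to 0.35 in WT and from -0.14 to 0.10 in EKO arrays, highest in WT replicate 1. Within that list Myh11, a smooth muscle myosin named after its values were seen, was lower in each EKO array than in each WT array, with a difference of -0.79 that did not pass (limma adjusted p = 0.625).

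**Figure D3:**
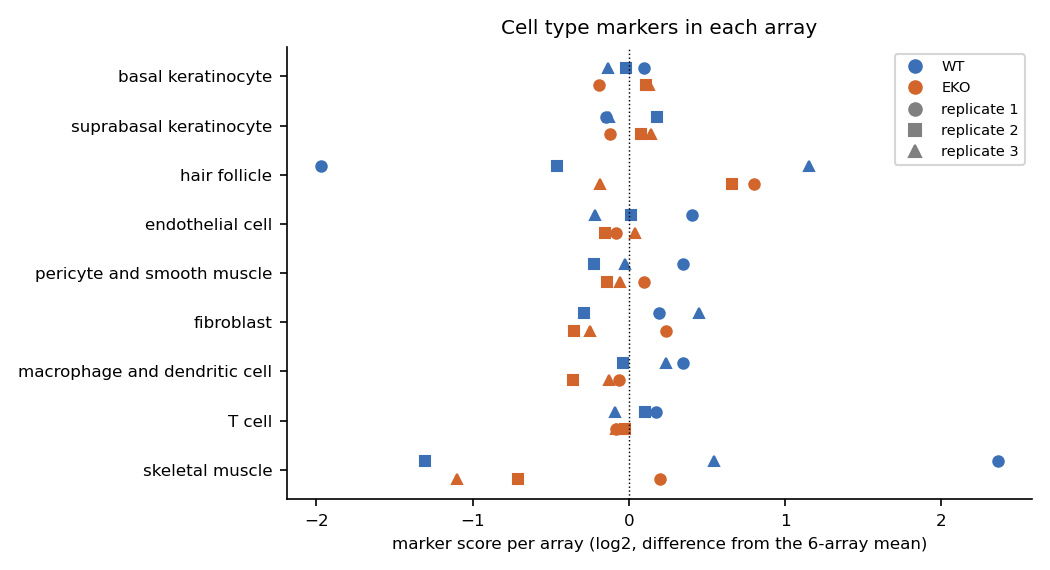
Scores of the cell type marker lists in each array (log2, mean over a list's genes of the difference from the 6-array mean), WT in blue and EKO in orange, with shapes for the replicate number. The hair follicle and skeletal muscle lists spread most among the WT arrays, the hair follicle score running from -1.97 to 1.15, and both keratinocyte lists stay within 0.19 of the mean.

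The ligands had close means in both groups on their brightest probe sets. Jag1, a ligand of basal keratinocytes and hair follicles, read 10.28, 10.48 and 10.61 in the WT and 10.72, 10.51 and 10.13 in the EKO replicates. EKO tumours held both its highest and its lowest value, and the difference was -0.00 (95% interval -0.39 to 0.38; limma adjusted p = 0.999). Jag2, a ligand of the basal layer and the hair matrix, read 8.58, 8.06 and 8.79 in WT and 8.26, 8.59 and 8.47 in EKO replicates. WT replicates 2 and 3 bounded all the others, and the difference was -0.03 (95% interval -0.49 to 0.42). Dll1, a ligand linked to epidermal stem cells, read 7.13, 6.96 and 7.12 in WT and 7.17, 6.91 and 7.22 in EKO replicates. Replicate 2 was lowest in both groups, which overlapped widely, and the difference was 0.03 (95% interval -0.23 to 0.30). These intervals show which differences the arrays could not separate from 0, and do not show that the levels were equal.

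Jag1 was the gene whose probe sets disagreed most. The middle probe set by brightness read 8.40, 8.75 and 8.74 in WT and 8.39, 8.44 and 8.24 in EKO replicates, a difference of -0.27. The dimmest read 7.22, 6.99 and 6.95 in WT and 6.72, 6.61 and 6.57 in EKO replicates, without overlap. Its difference was -0.42 (95% interval -0.66 to -0.17; limma over all 34945 named probe sets, unadjusted p = 0.00454, adjusted p = 0.592). The brightest and dimmest differences lay 0.412 apart on the log2 scale, against at most 0.258 for the other members with several probe sets. The sources used here do not give the part of the transcript that each probe set reads. Of all 19 member probe sets, 5 had no overlap, both of Notch1 and 1 each of Notch3, Jag1 and Rbpj, against 12.3% of all named probe sets. None of the 19 passed, against 0.00572% of all, while 4 had an unadjusted p under 0.05, against 7.43%.

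**Figure D4:**
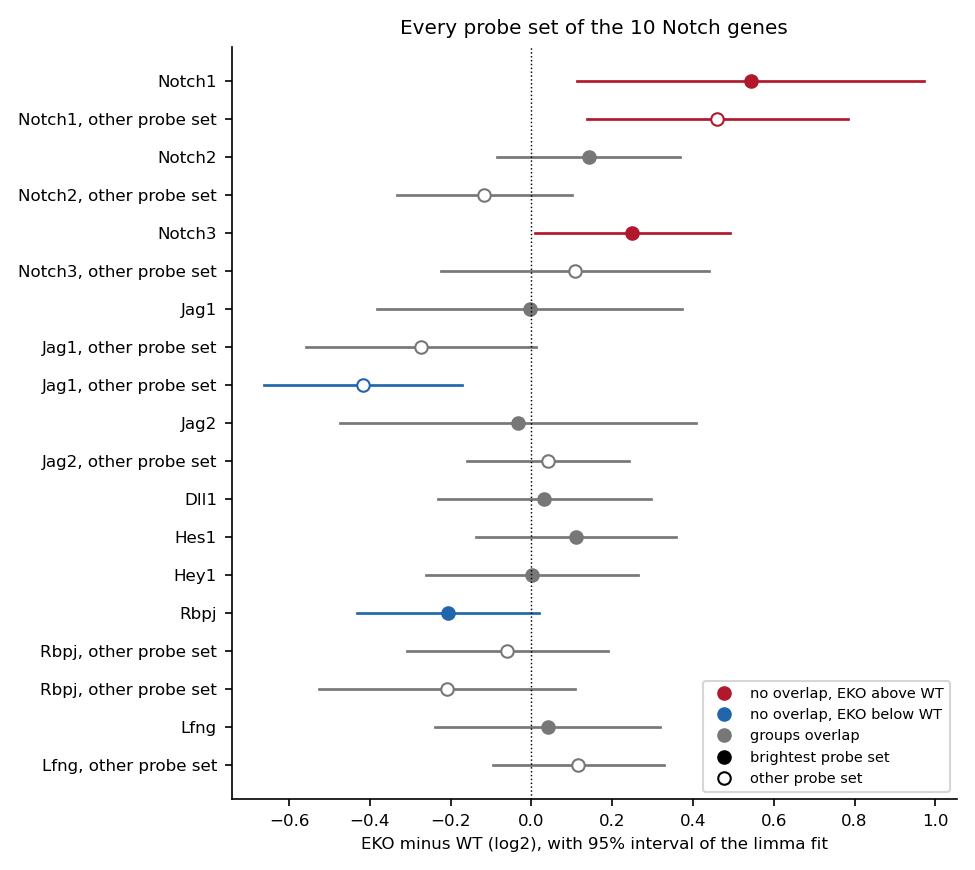
Difference EKO minus WT (log2) of each of the 19 probe sets of the 10 genes, with 95% intervals from the limma fit over all named probe sets; filled points are the brightest probe set of a gene and colours mark groups without overlap. Both Notch1 probe sets lie to the right of 0, while the 3 Jag1 probe sets run from -0.00 to -0.42.

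Rbpj was lower in EKO tumours by its mean. It read 8.73, 8.52 and 8.57 in the WT and 8.49, 8.37 and 8.35 in the EKO tumours (log2). Each EKO array was below each WT array, EKO replicate 1 lying 0.0354 below WT replicate 2. The difference was -0.21 (SE 0.0940, 95% interval -0.43 to 0.02; limma unadjusted p = 0.0638, adjusted p = 0.707). The other Rbpj probe sets had differences of -0.06 and -0.21, both with overlap, so all 3 pointed down.

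Rbpj binds the core sequence TGGGAA, often as GTGGGAA, and promoters with these letters are shown because Rbpj was the one nuclear member whose groups did not overlap. RefSeq promoter sequences (GRCm38.p6) matched 8 of the 10 genes by symbol, with 10 start sites, while Hes1 and Hey1 were not matched. In the 250 bases before the start, TGGGAA stood on either strand for 2 of the 8, Rbpj and Lfng, and the longer GTGGGAA, which contains it, for Lfng. Of all 32851 promoter windows of that length, 21.6% held TGGGAA and 5.42% GTGGGAA. The windows of Rbpj and Lfng, and that of the target gene Hes5 from the wider pathway, are shown from 5′ to 3′ with TGGGAA, or its reverse complement, in capitals. They are Rbpj at chr5:53590096-53590345, Lfng at chr5:140607091-140607340 and Hes5 at chr4:154960673-154960922, all on the + strand.
Rbpj: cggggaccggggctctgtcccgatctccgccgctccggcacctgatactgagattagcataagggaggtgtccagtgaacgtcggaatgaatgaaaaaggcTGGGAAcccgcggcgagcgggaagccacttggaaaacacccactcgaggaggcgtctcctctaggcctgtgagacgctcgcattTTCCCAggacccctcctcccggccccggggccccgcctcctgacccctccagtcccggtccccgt
Lfng: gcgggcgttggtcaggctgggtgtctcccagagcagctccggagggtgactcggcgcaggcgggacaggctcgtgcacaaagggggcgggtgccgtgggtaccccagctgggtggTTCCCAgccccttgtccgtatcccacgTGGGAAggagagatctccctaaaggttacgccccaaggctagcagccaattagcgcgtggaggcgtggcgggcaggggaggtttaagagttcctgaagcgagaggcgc
Hes5: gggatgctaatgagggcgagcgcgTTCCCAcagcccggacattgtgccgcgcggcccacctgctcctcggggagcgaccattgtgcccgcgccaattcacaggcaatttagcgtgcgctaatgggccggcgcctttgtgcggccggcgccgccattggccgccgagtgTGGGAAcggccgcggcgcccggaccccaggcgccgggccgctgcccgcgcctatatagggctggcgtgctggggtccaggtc
Counted from the start site, the matches began at -149 and -65 in Rbpj, at -135 and -108 in Lfng, and at -226 and -82 in Hes5. Of the other pathway windows read, that of Hey2 held GTGGGAA at 1 place and those of Nrarp, Dll4 and Notch4 held TGGGAA at 0, and Hes5 is shown because it held the most matches. A match is a string of letters and no measured binding site.

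The member target genes Hes1 and Hey1, and Lfng, did not separate the groups. Hes1, a repressor of the bHLH family and a direct Notch target, read 8.76, 8.71 and 8.83 in WT and 9.06, 8.77 and 8.80 in EKO replicates. EKO replicate 1 was above all others and the remaining EKO arrays lay within the WT range, with a difference of 0.11 (95% interval -0.14 to 0.36; limma adjusted p = 0.854), which was 0.018 without EKO replicate 1. Hey1, a related repressor prominent in vessels, read 6.34, 6.15 and 6.09 in WT and 6.24, 6.03 and 6.30 in EKO replicates. The groups were interleaved, with a difference of 0.00 (95% interval -0.26 to 0.26). Lfng, which adds sugars to Notch and alters its response to ligands, read 5.51, 5.20 and 5.52 in WT and 5.41, 5.57 and 5.36 in EKO replicates. WT replicate 2 was the lowest array, and the difference was 0.04 (95% interval -0.24 to 0.32). The other Lfng probe set was below the lower quartile in all 6 arrays.

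Hes5, whose promoter window holds GTGGGAA on both strands, had a log2 difference of 0.05 (95% interval -0.16 to 0.25). Heyl and Hey2 had differences of 0.11 and -0.05, and Hey2 was below the lower quartile in all 6 arrays. Nrarp, a target that feeds back on the Notch complex, read 10.51, 10.37 and 10.51 in WT and 10.79, 10.75 and 10.54 in EKO replicates. Each EKO array was above each WT array, replicate 3 by the least, with a difference of 0.23 (95% interval -0.01 to 0.47; limma adjusted p = 0.704). As a mean over its probe sets the Nrarp difference was 0.13. Ccnd1, which encodes cyclin D1 and answers to many pathways besides Notch, read 9.59, 9.59 and 10.12 in WT and 11.20, 10.17 and 10.86 in EKO replicates. Its groups did not overlap, and the difference of 0.97 (95% interval 0.33 to 1.62) did not pass (limma adjusted p = 0.621). The cell cycle inhibitor Cdkn1a had a difference of 0.18 and Myc one of 0.22. Of the 9 measured target genes of the wider pathway, 7 had higher and 2 lower EKO means, with a median log2 difference of 0.17. The 2 without overlap were Nrarp and Ccnd1, against 12.0% of all genes.

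Over the wider pathway, 50 of 54 listed genes were measured and 0 passed the test. By their means 29 were higher in EKO tumours and 21 were lower, with a median log2 difference of 0.03. Without overlap were 6 on the higher side, where 5.78% of all genes stood, and 3 on the lower side, where 6.19% stood. The 6 included Dll3, which was below the lower quartile in all 6 arrays, and Maml1, whose groups nearly met. At an unadjusted p under 0.05 there were 3, against 7.13% of all genes, namely Ccnd1 and Furin with higher and Dtx3l with lower EKO means.

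Of the 8 genes of receptor cleavage, 5 had higher and 3 lower means, and 3 were without overlap, against 12.0% of all genes. Furin, the convertase that makes the first cut of Notch, read 7.94, 7.89 and 7.94 in WT and 8.26, 8.26 and 8.02 in EKO replicates. All EKO arrays were above WT, replicate 3 by the least, and the difference was 0.25 (95% interval 0.03 to 0.48; limma adjusted p = 0.662). Of the 5 measured subunits of gamma-secretase, which makes the last cut, Aph1a at 0.09 and Psenen at -0.10 had no overlap, and Psen2 at -0.12, Ncstn at 0.07 and Aph1b at 0.01 overlapped. Adam17, a surface protease, had a difference of -0.22 with overlap. It ran from -0.37 to -0.13 with 1 array left out, and was -0.37 as a mean over its probe sets (limma unadjusted p = 0.043, adjusted p = 0.685).

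Of the 9 genes of receptor turnover, 6 had higher and 3 lower means, and the lower ones were all deltex genes, which encode ubiquitin ligases, though Dtx2 and Dtx3 were not among them. After a repeated quantile normalization 4 of the 9 had lower means. Dtx3l read 7.78, 7.55 and 7.41 in WT and 7.40, 7.19 and 6.95 in EKO replicates, so that the groups nearly touched. Its difference was -0.40 (95% interval -0.75 to -0.06; limma adjusted p = 0.655), that of Dtx4 -0.38 and that of Dtx1 -0.17. As means over their probe sets Dtx3l and Dtx4 both stood at -0.40, and Dtx1 at -0.010. The adaptor Numb, which inhibits Notch, had a difference of 0.10. Of the 8 genes acting on ligands or adding sugars to receptors, 7 had lower means and 0 were without overlap, against 12.0% of all genes. Neurl1b, a ubiquitin ligase of ligands, had the largest difference of these 8, -0.52, with EKO values of 6.42, 7.41 and 6.63. It was -0.82 without EKO replicate 2 and -0.32 without EKO replicate 1. The protein O-glycosyltransferases Pofut1 and Poglut1 had differences of -0.13 and -0.14, and Pofut1 stood at -0.012 as a mean over its probe sets.

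Among 10 nuclear cofactors 6 had higher means, and the coactivator Maml1 was the 1 without overlap, against 12.0% of all genes. Its groups nearly met, at 8.2523 in WT replicate 3 and 8.2545 in EKO replicate 3. The Maml1 difference was 0.15 (95% interval -0.05 to 0.35), and 0.028 as a mean over its probe sets. The corepressor Tle3 stood at 0.24. The acetyltransferase Kat2b stood at -0.18, and ran from -0.27 to -0.06 with 1 array left out. As a mean over its probe sets it was -0.24 (limma unadjusted p = 0.018, adjusted p = 0.665). Notch4, a receptor of endothelium, had a difference of 0.29 (95% interval -0.21 to 0.80), and its vascular ligand Dll4 one of 0.04. The Notch4 difference was 0.059 without WT replicate 3, 0.45 without WT replicate 1 and 0.038 as a mean over its probe sets. The 10 endothelial markers had a median log2 difference of -0.03, with 4 higher and 6 lower means, and their score ran from -0.22 to 0.40 in WT and from -0.15 to 0.04 in EKO arrays. They ran from -0.68 for Cldn5 to 0.42 for Kdr, and 3 of the 10, these and Tek, were without overlap, against 12.0% of all genes, and had an unadjusted p under 0.05 in limma, against 7.13%. The ligands Dll3 and Dner were below the lower quartile in all 6 arrays.

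**Figure D5:**
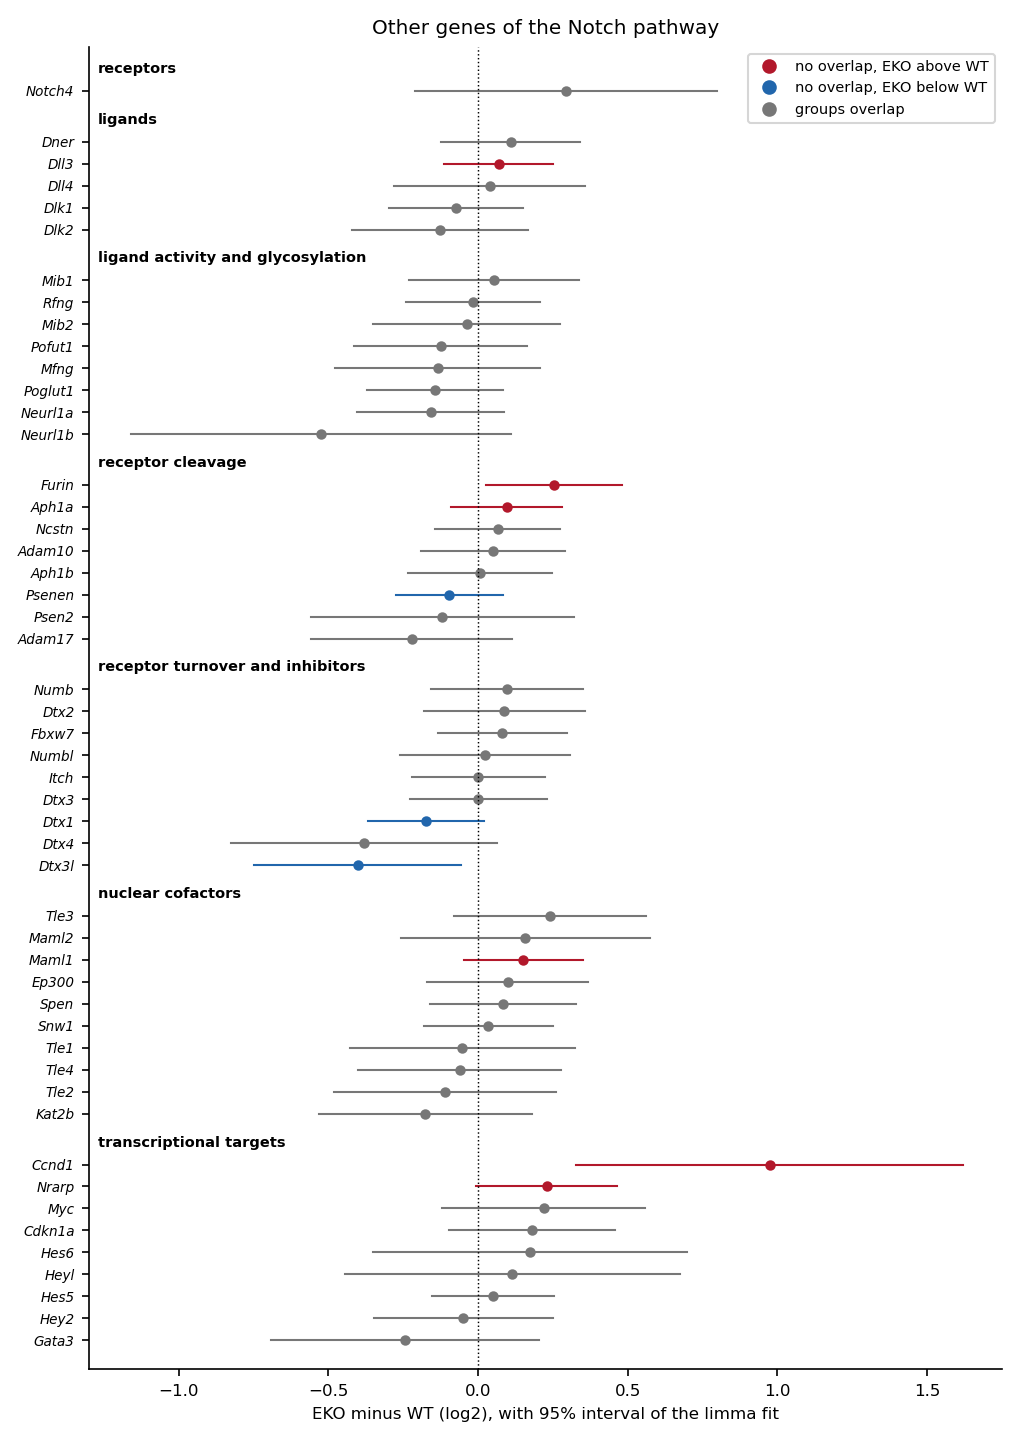
Difference EKO minus WT (log2) of the other 50 measured genes of the Notch pathway, grouped by role, with 95% intervals of the limma fit and colours for groups without overlap. Most intervals include 0, and Ccnd1, at 0.97, lies farthest from it.

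Differentiation genes of the suprabasal layer, which Notch signalling is known to favour, did not separate the groups. The 7 markers ran from -0.14 to 0.42, highest for Lor, the envelope protein loricrin, with a median log2 difference of 0.05. Of these, 5 had higher and 2 lower EKO means, and 0 were without overlap, against 12.0% of all genes. Krt1 and Krt10, the suprabasal keratins, had differences of 0.04 and 0.14. The suprabasal markers were bright, with means over the list of 13.37 to 13.70 per array, where the array maxima ran from 14.91 to 14.97. Whether signals so near the maximum could show a further rise was not tested. The 7 basal markers had a median of 0.03, with 1 without overlap, against the same share of all genes.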

How the data were processed

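The deposited values are on the log2 scale, and the submitters' processing notes name RMA and Partek 6.6. RMA corrects background, normalizes quantiles between arrays and summarises probes, which narrows differences between dim signals. The values carry no detection calls, and batches were not tested, since the sources used here give no scan dates or slides, nor a genome build.

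Of 45101 probe sets, 34945 carried 1 gene symbol in the platform annotation, of which 34741 matched the RefSeq gene table by Entrez identifier and 0 changed symbol. Controls (64), probe sets with several symbols (932) and those unnamed here (9160) were left out. The brightest probe set by its 6-array mean stood for its gene, 18193 genes in all, with no filter on low values. The test of EKO against WT was two-sided, with lmFit and eBayes of limma 3.58.1 (R 4.3.3), adjusted over all genes by Benjamini-Hochberg, threshold 0.05. Differences are EKO minus WT, and intervals are 95% intervals of that fit. Signals of different probe sets were not compared with each other.

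Groups and replicate numbers follow the sample titles, where replicates are called biological. The 3 arrays per group limit the precision. The procedure was tested on simulated data. The members, pathway lists, marker lists and tests were chosen with earlier results of these data known. Named were all members, Fabp5, up to 4 genes per pathway group by smallest unadjusted p, and Notch4, Dll4, Hes5, Hey2 and Heyl. Genes outside that rule are context, and Cldn5, Kdr, Tek, Lor and the overlapping gamma-secretase subunits were named after their values were seen. Of 54 pathway genes, 4 were not analysed here, and 6 of 8 T cell markers were measured (median log2 difference -0.14). The fibroblast list had a median of -0.20. Alternatives were a replicate block, the upper 50% of means, centred array medians, a repeated quantile normalization, trend and robust variances, array weights, a mean over probe sets, all probe sets, and each array left out.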

Additional observations from a re-analysis of the deposited data

How the results depend on the processing

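Under all 14 alternatives 0 of the Notch genes passed, and Notch1, Notch2, Notch3, Hes1 and Rbpj kept the sign of their difference; the other 5, all close to 0, did not. The number of genes past the threshold among all genes was 1, and the fit of all probe sets called 2 probe sets, both of Fabp5. It ran from 1 to 42 with 1 array left out (42 without EKO replicate 2, 2 without WT replicate 2). The median difference of the 10 genes ran from -0.0049 to 0.12 with 1 array left out, the highest without EKO replicate 3. With the replicate number as a block, 1 gene and 0 members passed and no call at the adjusted threshold changed; unadjusted p was 0.0541 for Notch3 and 0.0638 for Furin. Unadjusted p stayed under 0.05 in 11 of 14 alternatives for Notch1, 7 for Notch3, 8 for Furin, 10 for Dtx3l and 14 for Ccnd1. Same-numbered arrays had deviations from their group means correlated at -0.07, -0.09 and -0.34, which gave no sign of pairing by number. Such a check cannot exclude pairing, because the deviations within a group sum to 0. The signs turned as follows, and the cause was not tested. Array weights gave Jag1 0.040, Jag2 0.044, Hey1 -0.011 and Dll4 -0.015. A repeated quantile normalization gave Hey1 -0.0038. A mean over probe sets gave Jag2 0.0042, Dlk1 0.017, Numb -0.050 and Hes5 -0.0018. With 1 array left out Jag1 ran from -0.14 to 0.15, Jag2 from -0.24 to 0.12, Dll1 from -0.028 to 0.13, Hey1 from -0.052 to 0.081 and Lfng from -0.066 to 0.098. On the same basis Dll4 ran from -0.080 to 0.12, Maml2 from -0.015 to 0.35, Hey2 from -0.13 to 0.053 and Heyl from -0.085 to 0.31. The filter on the upper 50% of means removed Hey1 and Lfng. The mean over its probe sets put Jag1 at -0.23 (limma unadjusted p = 0.048, adjusted p over its alternatives from 0.685 to 1.00).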

Other observations

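Disagreement between probe sets, as seen for Jag1, was common on this array. Of 9010 genes with several probe sets, 1505, or 16.7%, had groups that overlapped on the brightest probe set and did not on another. Probe sets of opposite sign were found for 54.5% of these genes, and 98 genes had 1 probe set without overlap above and another without overlap below. Among the 2366 genes with 3 probe sets, 231, or 9.76%, had differences at least as far apart as those of Jag1.

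Across the arrays no tumour stood at the top of the Notch genes throughout. EKO replicates 1 and 2 each held the highest value for 3 of the 10 genes, and WT replicate 2 held the highest for 0 and the lowest for 3.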
